A study of Mus musculus with 8 samples.

Results

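The stratified epithelium barrier genes are 10 genes, Sfn, Lgals7, Fabp5, Perp, Sbsn, Sprr1a, Ivl, Evpl, Ppl and Klf4, whose products build or regulate the protective outer layers of skin and mouth. They were taken from the array as all probe sets annotated with exactly 1 of these symbols, which gave 15 probe sets for 10 of the 18193 genes that had a probe set with a single symbol. The genes were selected on the signals of R26Pax3/Pax3 and wild type arrays themselves, with earlier results of that comparison known. Their genotype differences are therefore a description and carry no p-value of their own.

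Signals were measured in palatal shelves, the plates of oral tissue that join to close the roof of the mouth, of mouse embryos at embryonic day 14.5. There were 4 arrays of R26Pax3/Pax3 shelves (replicates 1, 3, 4 and 7) and 4 of wild type littermates (replicates 2, 6, 8 and 11), all on a cross of C57BL/6 with SV129, and no treatment was named. The R26Pax3 allele carries Pax3, a paired-box transcription factor, at the Rosa26 locus, and the labels name neither a Cre driver nor the cells that express it. They do not say whether a sample is 1 embryo or a pool, so tests measure the spread between these samples. Values are MAS5 signals, linear intensities per probe set.

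A stratified epithelium keeps dividing cells in a basal layer and moves their daughters outward, where they strengthen their desmosomes and finally lay down a cornified envelope, a shell of cross-linked proteins under the membrane. In the embryonic mouth the outermost layer is the periderm, a flat cell sheet that keeps the shelves from sticking to other surfaces before they meet. Cornification itself is a late event in mouse development, and involucrin and the small proline-rich proteins are among the precursors of the envelope.

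Pax3, the gene added by the allele, averaged 619 ± 88.8 against 162 ± 14.6 in wild type on its brightest probe set (SD, n = 4 each, log2 difference 1.83, SE 0.113, limma adjusted p = 1.59e-05). Of its other probe sets, 1 was likewise higher, by 1.96, and 1 was lower, by -0.29 (limma adjusted p = 1.00). Differences here and below are R26Pax3/Pax3 minus wild type on the scale log2(signal + 16). They were fitted over the 27022 probe sets that lay above the 40th percentile of mean level. Array medians lay between 43.5 and 44.8. A signal below its array's median was not taken as detected, since detection calls were not used here. The median is a working bound and not a measure of background. The tissue held epithelium by its defining markers: all 20 genes of a list of general epithelium passed the filter, with Epcam at 665 ± 67.2 against 649 ± 64.9 and Cdh1 at 584 ± 26.8 against 504 ± 102 (SD, n = 4 each). Shelves are mostly mesenchyme, and 11 of 11 mesenchymal marker genes on the array also passed. In whole tissue, fewer epithelial cells and less RNA per epithelial cell cannot be told apart.

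The sequences just before the transcription start are shown for 5 of the genes, because these 5 span the patterns below: Sfn and Lgals7 with the largest genotype differences, Sbsn with a difference that depended on the arrays compared, and Sprr1a and Ivl with signals below the array medians. Each window runs from 250 bases before to 50 bases after the start, 5′ to 3′, from RefSeq on GRCm38.p6. Capitals mark TGAGTCA or TGACTCA (the site of AP-1, a factor of keratinocyte differentiation), CACCC or GGGTG (a core of Krüppel-like factor sites) and TATAAA or TTTATA, each searched on both strands. AACCGGTT, a grainyhead-like site, was searched as well and was in none of these windows.
Sfn, chr4:133602119-133602418, minus strand: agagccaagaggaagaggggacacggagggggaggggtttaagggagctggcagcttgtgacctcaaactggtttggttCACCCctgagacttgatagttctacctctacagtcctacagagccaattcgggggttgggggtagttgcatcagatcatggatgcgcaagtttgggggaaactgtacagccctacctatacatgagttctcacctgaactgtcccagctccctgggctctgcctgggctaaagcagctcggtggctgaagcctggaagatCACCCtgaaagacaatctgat
Lgals7, chr7:28864136-28864435, plus strand: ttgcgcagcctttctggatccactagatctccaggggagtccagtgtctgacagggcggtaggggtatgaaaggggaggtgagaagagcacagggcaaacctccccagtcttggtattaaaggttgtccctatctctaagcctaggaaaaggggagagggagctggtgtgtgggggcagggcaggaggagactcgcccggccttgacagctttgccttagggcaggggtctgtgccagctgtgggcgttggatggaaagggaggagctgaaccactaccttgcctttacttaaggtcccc
Sbsn, chr7:30751221-30751520, plus strand: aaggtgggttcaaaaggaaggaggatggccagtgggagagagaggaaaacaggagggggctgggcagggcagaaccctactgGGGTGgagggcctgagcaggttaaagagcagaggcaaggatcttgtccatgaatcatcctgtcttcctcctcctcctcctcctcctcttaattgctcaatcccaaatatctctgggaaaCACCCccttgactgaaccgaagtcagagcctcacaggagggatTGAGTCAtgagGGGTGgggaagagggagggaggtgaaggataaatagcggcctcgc
Sprr1a, chr3:92485832-92486131, minus strand: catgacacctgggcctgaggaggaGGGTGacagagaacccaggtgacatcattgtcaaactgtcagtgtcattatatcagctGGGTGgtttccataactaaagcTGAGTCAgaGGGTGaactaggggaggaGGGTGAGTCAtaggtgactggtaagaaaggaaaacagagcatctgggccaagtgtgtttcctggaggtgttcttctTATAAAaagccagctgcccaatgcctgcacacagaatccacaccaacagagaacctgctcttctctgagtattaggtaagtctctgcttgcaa
Ivl, chr3:92573686-92573985, minus strand: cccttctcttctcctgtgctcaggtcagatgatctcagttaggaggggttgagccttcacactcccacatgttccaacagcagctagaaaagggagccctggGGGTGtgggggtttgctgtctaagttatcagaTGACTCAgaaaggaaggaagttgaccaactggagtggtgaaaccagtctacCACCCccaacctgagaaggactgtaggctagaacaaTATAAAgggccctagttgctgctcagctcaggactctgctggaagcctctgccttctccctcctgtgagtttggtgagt

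Of 6 barrier genes found in the RefSeq promoter table, 3 held the AP-1 letters, Sprr1a, Ivl and Sbsn, against 5.20% of all 32851 promoter windows. Sprr1a held 2 copies, at 146 and 116 bases before the start, and the nearer one overlaps a GGGTG. In Ivl the letters began 116 bases before the start as well, and in Sbsn 6 bases before it. TATAAA stood 43 bases before the start of Sprr1a and 29 bases before that of Ivl, against 13.6% of all windows with it on either strand. The windows of Sfn and Lgals7 held neither. CACCC or GGGTG was in 4 of the 6, Sfn, Sbsn, Sprr1a and Ivl, but 57.5% of all windows hold these 5 letters. AACCGGTT was in 0.146% of all windows. These matches describe letters only and do not show that a factor binds.

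Lgals7, Sfn and Fabp5 were the barrier genes whose R26Pax3/Pax3 arrays all lay above the wild type arrays. They did so on 4 of the 12 barrier probe sets that passed the filter, while the share over all probe sets tested was 1.38%. No barrier probe set lay wholly below wild type, where the share over all was 1.35%. Because the list was made with this comparison known, nothing is read from these counts.

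Lgals7 encodes galectin-7, a carbohydrate-binding lectin of stratified epithelia. Its 1 probe set, 1422308_a_at, read 127.3, 134.8, 151.7 and 158.0 in R26Pax3/Pax3 replicates 1, 3, 4 and 7, and 85.6, 67.5, 95.0 and 88.0 in wild type replicates 2, 6, 8 and 11. The groups did not overlap, and the gap between the lowest R26Pax3/Pax3 array and the highest wild type array was wider than the SD of either group. Means were 143 ± 14.3 and 84.0 ± 11.7 (SD, n = 4 each), with a ratio of 1.70 and a difference of 0.67 on the log2 scale (SE 0.124). All 8 signals were above the medians of their arrays.

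Sfn encodes stratifin, the 14-3-3 protein of stratified epithelia, which is known as a p53 target and takes part in the switch from division to differentiation. Its probe set, 1448612_at, read 162.9, 142.6, 162.7 and 147.5 in R26Pax3/Pax3 replicates 1, 3, 4 and 7, and 108.4, 101.7, 80.9 and 107.2 in wild type replicates 2, 6, 8 and 11. Again all R26Pax3/Pax3 arrays were above all wild type arrays, and wild type replicate 8 was the lowest. Means were 154 ± 10.4 and 99.6 ± 12.8 (SD, n = 4 each), with a ratio of 1.55 and a difference of 0.56 on the log2 scale (SE 0.115).

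Fabp5, the epidermal fatty acid-binding protein, carries fatty acids inside keratinocytes but is not limited to epithelium. The brighter probe set, 1416021_a_at, read 4694.5, 4383.6, 4706.3 and 4741.9 in R26Pax3/Pax3 replicates 1, 3, 4 and 7, and 4019.4, 3933.6, 3754.1 and 3799.8 in wild type replicates 2, 6, 8 and 11. Here 3 R26Pax3/Pax3 arrays read nearly the same and replicate 3 was lower, though still above every wild type array. Means were 4632 ± 167 and 3877 ± 122 (SD, n = 4 each), with a ratio of 1.19 and a difference of 0.26 on the log2 scale (SE 0.0605). The second probe set, 1416022_at, gave 1619 ± 94.7 and 1272 ± 104 (SD, n = 4 each), a log2 difference of 0.35 (SE 0.0796), also with no overlap. Within genotypes these probe sets hardly followed each other across arrays (Pearson r = 0.15 over 8 arrays, a description). The difference of Fabp5 was thus the smallest of these genes in size and had the smallest SE. The RefSeq table lists a Fabp5-like pseudogene, Fabp5l2, and whether the probes also read its transcript was not tested.

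For Sfn, Lgals7 and Fabp5 the groups did not overlap, so their differences had to be positive within any set of arrays. Only the sizes are of interest below, and the shared direction is no added result. The 8 arrays were deposited in an order that splits them into a first and a last 4 with 2 of each genotype. The labels do not call these sets batches. Within the first and last 4 arrays the log2 differences were 0.61 and 0.73 for Lgals7, 0.66 and 0.47 for Sfn, and 0.24 and 0.27 for the brighter probe set of Fabp5.

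**Figure D1:**
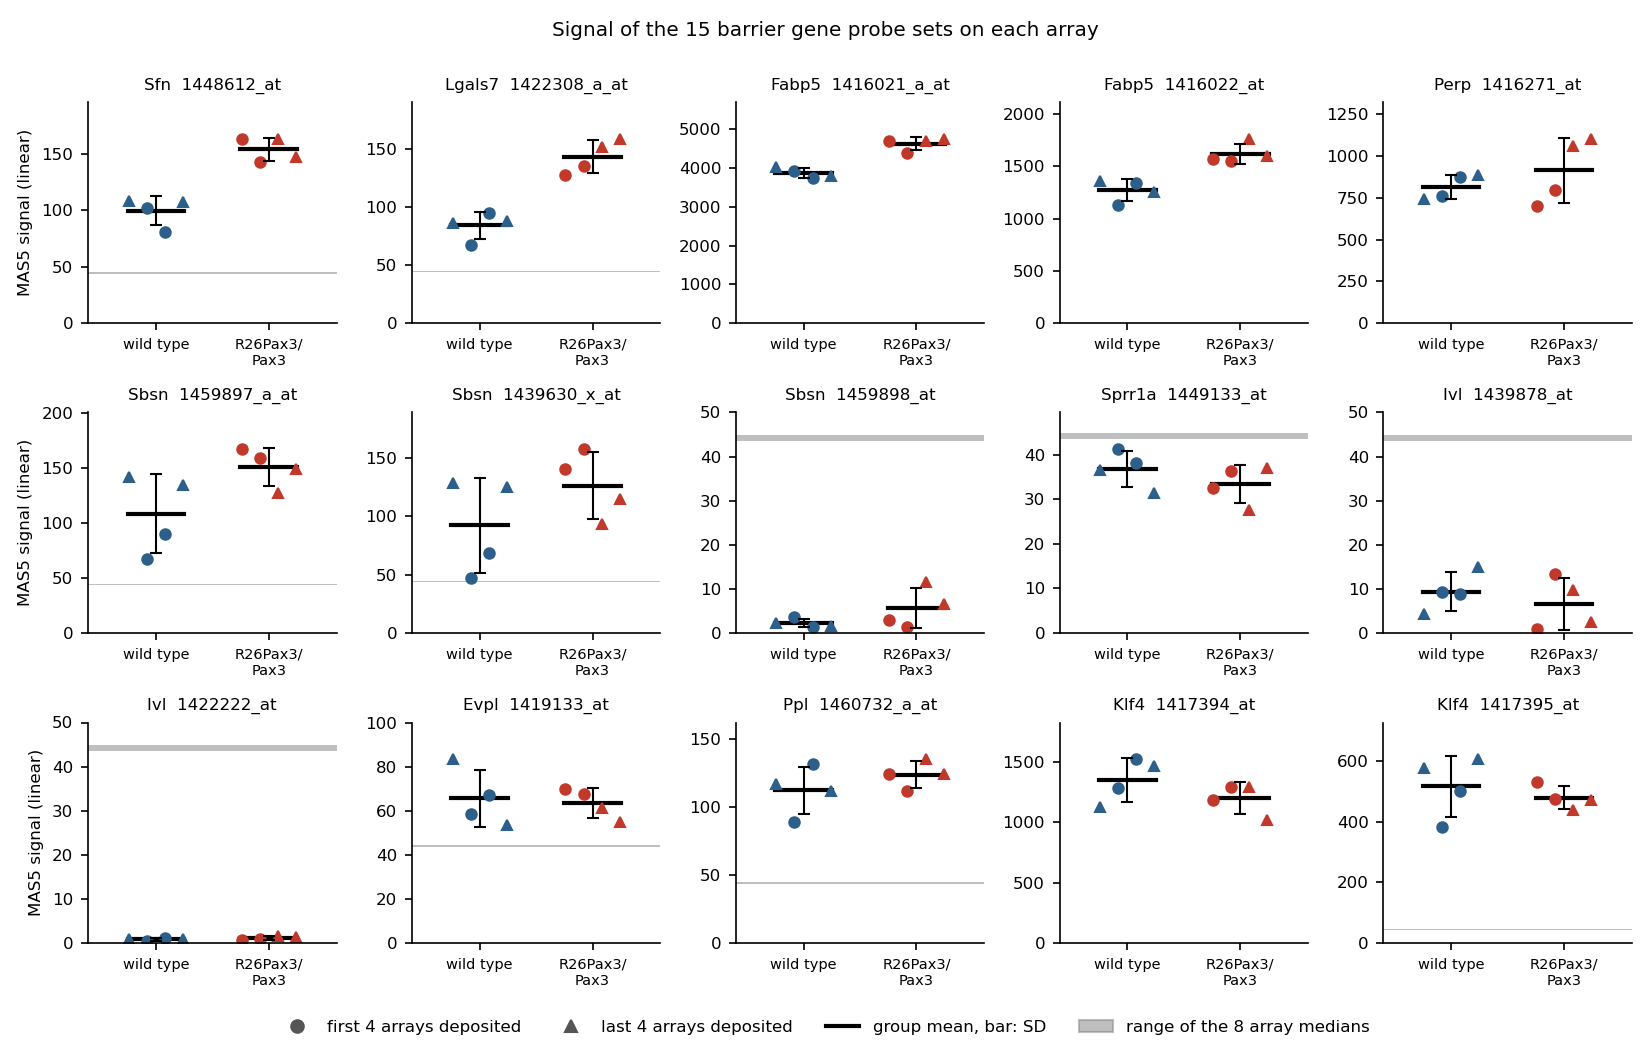
MAS5 signal (linear, from 0) of each of the 15 barrier gene probe sets on the 4 wild type (blue) and 4 R26Pax3/Pax3 (red) arrays, with group mean and SD; circles are the first 4 and triangles the last 4 arrays deposited, and the grey band is the range of the array medians, 43.5 to 44.8. The groups are apart for Sfn, Lgals7 and both probe sets of Fabp5, and 4 probe sets lie below the band on all 8 arrays.

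Sbsn encodes suprabasin, a secreted protein of suprabasal keratinocytes, and 2 of its wild type arrays were low. The brightest of its 3 probe sets, 1459897_a_at, read 166.8, 158.8, 126.9 and 149.1 in R26Pax3/Pax3 replicates 1, 3, 4 and 7, and 141.5, 66.9, 90.3 and 134.5 in wild type replicates 2, 6, 8 and 11. Wild type replicates 6 and 8, both among the first 4 arrays deposited, were the low ones, and the other wild type arrays lay within the R26Pax3/Pax3 range. Means were 150 ± 17.3 and 108 ± 35.7 (SD, n = 4 each), a log2 difference of 0.46 (SE 0.189) that was 0.28 without wild type replicate 6.

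Within the first 4 arrays the difference of this Sbsn probe set was 0.93, and within the last 4 it was -0.0034. The second probe set, 1439630_x_at, followed it from array to array, with differences of 1.17 and -0.26 and a log2 difference of 0.46 (SE 0.252) over all arrays. An x_at probe set may share probes with other transcripts, and since both sets read the same gene they are no independent pair. This split was seen before it was tested, and the change of the genotype difference between the array sets did not pass over all probe sets (limma interaction adjusted p = 0.27 for the brightest and 0.223 for the second). By that interaction test, 0 of 12 barrier probe sets passed at an adjusted p under 0.05, against 0.0222% of all probe sets. An unadjusted p under 0.05 was found for 4 of the 12, against 11.2% of all probe sets, and as the split had prompted the test this count is no support for it. These were the 2 Sbsn probe sets, Perp and the dimmer probe set of Klf4. The third Sbsn probe set, 1459898_at, read 1.4 to 11.5, below the median on all 8 arrays.

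The 2 protein-coding genes that follow Sbsn on chromosome 7 in the RefSeq gene order, Dmkn and Krtdap, are also secreted products of suprabasal keratinocytes. Neither shared its pattern by array set. The log2 difference of Dmkn, which encodes dermokine, was -0.020 in the first and 0.62 in the last 4 arrays. That of Krtdap, keratinocyte differentiation-associated protein, was 0.014 and 0.78. For both, R26Pax3/Pax3 arrays spread widely, from 58.8 to 137 for Dmkn and from 43.4 to 126 for Krtdap, and overlapped with wild type. Krtdap was below the array median on 3 of 8 arrays.

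Perp, a membrane protein of desmosomes that is a target of p53 and of its relative p63 in stratified epithelia, separated the R26Pax3/Pax3 arrays from each other rather than from wild type. Its probe set, 1416271_at, read 703.2, 794.2, 1059.1 and 1101.0 in R26Pax3/Pax3 replicates 1, 3, 4 and 7, and 743.4, 762.9, 873.7 and 884.1 in wild type replicates 2, 6, 8 and 11. R26Pax3/Pax3 replicates 4 and 7, both among the last 4 arrays, were above every other array, and replicate 1 was the lowest of all 8. Means were 914 ± 196 and 816 ± 73.2 (SD, n = 4 each), a log2 difference of 0.14 (SE 0.136), where the first 4 arrays gave -0.13 and the last 4 gave 0.41. It was 0.063 without R26Pax3/Pax3 replicate 4, 0.045 without replicate 7 and 0.26 without replicate 1.

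Evpl and Ppl encode envoplakin and periplakin, plakin-family linkers that pair with each other and form an early scaffold of the cornified envelope at desmosomes. Evpl, on 1419133_at, ran from 54.9 to 69.9 on R26Pax3/Pax3 arrays and from 53.7 to 83.6 on wild type arrays, close above the array medians. Its means were 63.6 ± 6.81 and 65.8 ± 13.1 (SD, n = 4 each), a log2 difference of -0.03 (SE 0.143). Ppl, on 1460732_a_at, ran from 111.3 to 134.8 on R26Pax3/Pax3 arrays and from 89.0 to 131.1 on wild type arrays, with means of 124 ± 9.61 and 112 ± 17.5 (SD, n = 4 each) and a log2 difference of 0.13 (SE 0.124). Without wild type replicate 6 the difference of Ppl was 0.042, and without wild type replicate 8 it was 0.20. Both genes overlapped between genotypes, and both differences were about as large as their SE or smaller.

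Klf4, a Krüppel-like transcription factor needed for the skin barrier in mice and also expressed outside epithelium, had lower means in R26Pax3/Pax3. The brighter probe set, 1417394_at, read 1189.4, 1296.2, 1298.0 and 1016.7 in R26Pax3/Pax3 replicates 1, 3, 4 and 7, and 1125.2, 1284.9, 1524.1 and 1465.3 in wild type replicates 2, 6, 8 and 11. The groups overlapped, with wild type replicate 2 below all R26Pax3/Pax3 arrays but replicate 7. Means were 1200 ± 132 and 1350 ± 181 (SD, n = 4 each), a log2 difference of -0.16 (SE 0.110). The dimmer probe set, 1417395_at, gave 479 ± 38.6 and 516 ± 100 (SD, n = 4 each), a log2 difference of -0.09 (SE 0.131), with 0.20 in the first and -0.37 in the last 4 arrays. The probe sets of Klf4 did not follow each other across arrays within genotypes (Pearson r = -0.016 over 8 arrays, a description).

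Sprr1a and Ivl, the precursors that are cross-linked into the mature cornified envelope, read below the array median on all 8 arrays. Sprr1a, on 1449133_at, ran from 27.6 to 36.9 on R26Pax3/Pax3 arrays and from 31.3 to 41.2 on wild type arrays, which overlap. It passed the filter on mean level all the same. The 2 probe sets of Ivl read 0.9 to 15 and 0.4 to 1.5 over the 8 arrays, did not pass the filter and were not tested. The log2 difference of Sprr1a, -0.10 (SE 0.141), is between signals below the array medians, which were not taken as detected. It enters the counts and means over the list only because it passed the filter. No difference is given for Ivl. Ivl is the second protein-coding gene after Sprr1a on chromosome 3 in the RefSeq gene order, within the cluster of epidermal differentiation genes. With the third Sbsn probe set, 4 of the 15 probe sets were below the median on all 8 arrays, and the other 11 were above it on all 8.

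**Figure D2:**
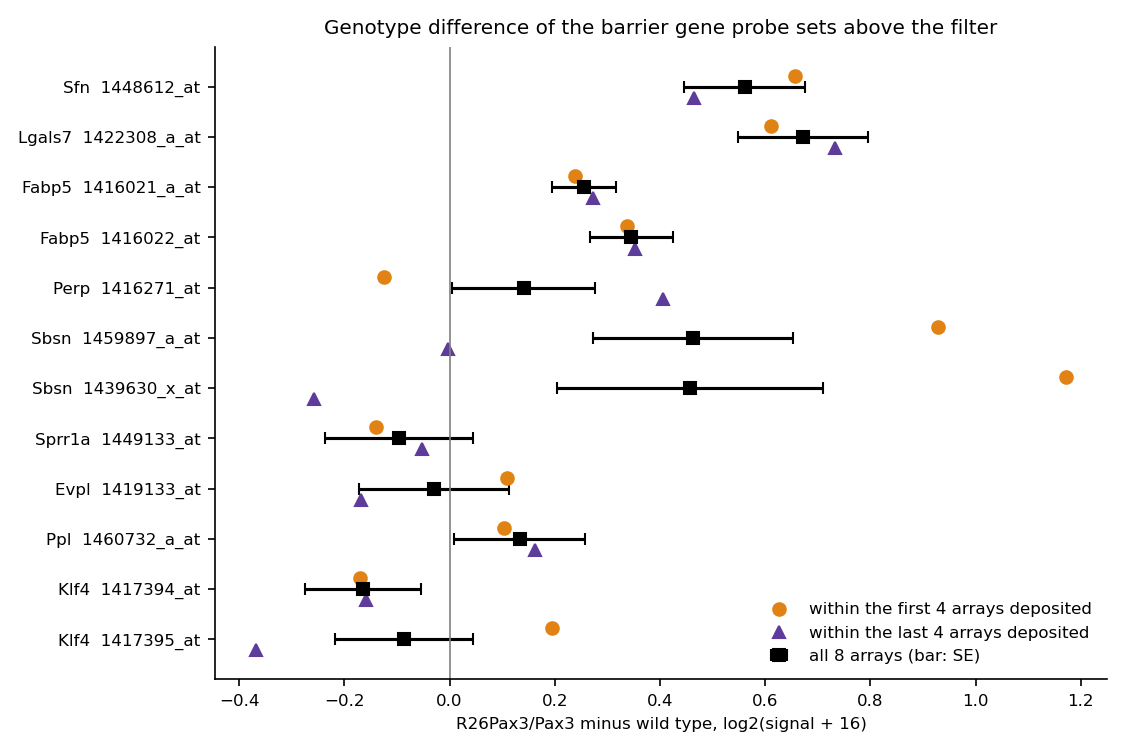
Log2 difference, R26Pax3/Pax3 minus wild type, of the 12 barrier gene probe sets above the filter: squares with SE bars are all 8 arrays, circles the first 4 and triangles the last 4 arrays deposited. Sfn, Lgals7 and Fabp5 stay above 0 in both sets, as they must because their groups do not overlap. Sbsn, Perp, Evpl and the dimmer Klf4 probe set change side.

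Over the whole list, 6 of the 9 barrier genes with a probe set above the filter had a higher mean in R26Pax3/Pax3 and 3 a lower one, Klf4, Sprr1a and Evpl. The median log2 difference was 0.14 on the brightest probe set of each gene. Over all 12329 genes tested it was -0.0032, with 6032 higher and 6297 lower. None of the 12 barrier probe sets passed an adjusted p under 0.05 in limma over all probe sets, against 0.0148% of all probe sets, and 5 had an unadjusted p under 0.05, where the share over all was 4.86%. Since these genes were selected on this comparison, nothing is read from these counts. The direction turned between the first and last 4 arrays on 5 of the 12.

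The mean of the 9 genes on each array averaged 8.16 ± 0.0225 against 7.94 ± 0.0872 in wild type on the log2 scale (SD, n = 4 each), a difference of 0.21. The R26Pax3/Pax3 arrays lay between 8.13 and 8.18 and the wild type arrays between 7.81 and 8.00, so the groups did not overlap. As the genes were selected on this comparison, nothing is read from that gap. Wild type replicate 6 was the lowest array. The single genes did not rise and fall together across arrays. Over the 36 pairs of barrier genes, Pearson's r across the 8 arrays, after the genotype means were taken away, ran from -0.77 to 0.83 with a median of -0.042, given as a description.

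The order of deposit was not used to choose the genes, so it could be tested. In a fit with genotype, 0 of 12 barrier probe sets differed between the last and first 4 arrays at an adjusted p under 0.05 in limma, against 0.148% of all probe sets (0.122% higher and 0.0259% lower in the last 4), and 0 had an unadjusted p under 0.05. The smallest adjusted p was 0.568, for Perp, which was higher in the last 4 arrays by 0.26 on the log2 scale (SE 0.117). Differences of the other barrier probe sets ran from -0.12 to 0.25.

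The barrier genes were set beside other genes of the same tissue layers, each represented by its brightest probe set above the filter. None of these lists had a member past an adjusted p under 0.05 in limma, where 0.0162% of all genes did. Groups that did not overlap, with R26Pax3/Pax3 above, made up 1.71% of all genes, and 5.58% of all genes had an unadjusted p under 0.05. No difference between lists was tested. These lists, too, were chosen with earlier results of these data known, so their counts and gaps are a description.

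Desmosome genes all had higher means in R26Pax3/Pax3. Of 8 measured, 8 were higher in R26Pax3/Pax3, with a median log2 difference of 0.31, 5 had an unadjusted p under 0.05 and the smallest adjusted p was 0.655, that of the plakophilin Pkp1. Desmoplakin, Dsp, the plakin that ties desmosomes to keratin filaments, read 1895 ± 205 against 1547 ± 198 (SD, n = 4 each), a log2 difference of 0.29 (SE 0.107). Plakoglobin, Jup, had 0.37 (SE 0.153) and desmocollin 2, Dsc2, had 0.41 (SE 0.166). Only Pkp3 had groups that did not overlap. The list median was 0.29 in the first and 0.47 in the last 4 arrays. Dsg2 and Pkp2 turned between these sets, from -0.22 to 0.71 and from -0.027 to 0.52. The other desmosome genes were higher in both.

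Among basal layer genes, 10 of 11 were higher, with a median of 0.16 and 3 with an unadjusted p under 0.05 (smallest adjusted p = 0.45). Krt17, a keratin of embryonic and stressed epithelium, read 543 ± 87.0 against 280 ± 88.1 (SD, n = 4 each), a log2 difference of 0.96 (SE 0.206), and its groups did not overlap. The basal keratin Krt14 averaged 1279 ± 247 against 827 ± 164 (SD, n = 4 each), a log2 difference of 0.62 (SE 0.157) with overlap. Its partner keratin 5, Krt5, read 731 ± 118 against 556 ± 179 (SD, n = 4 each), a log2 difference of 0.43 (SE 0.200). Lama3, a chain of the basement membrane laminin, had 0.36 (SE 0.153), and the integrin Itga6 had 0.21 (SE 0.113). The groups overlapped for these 3 genes. The keratin Krt15 read 1393 ± 379 against 1302 ± 270 (SD, n = 4 each), a log2 difference of 0.075 (SE 0.194). Itga3 had 0.016 (SE 0.190), and Bcam was the 1 lower gene, by -0.17 (SE 0.145).

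Keratins of periderm and suprabasal layers were uneven. Of 8 on the array 4 passed the filter, and 3 were higher, with a median of 0.047. Krt6a alone was large, at 986 ± 235 against 529 ± 126 (SD, n = 4 each), a log2 difference of 0.88 (SE 0.195, limma adjusted p = 0.504), with no overlap and differences of 0.93 and 0.82 in the first and last 4 arrays. Krt13 had 0.028 (SE 0.341) and Krt4 had -0.0089 (SE 0.170). Both turned between the first and last 4 arrays, from -0.49 to 0.54 for Krt13 and from -0.36 to 0.35 for Krt4, and the list median went from -0.31 to 0.46.

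Regulators of stratification were mixed, with 11 of 17 higher, a median of 0.11 and 2 with an unadjusted p under 0.05 (smallest adjusted p = 0.817). These were Zfp750, a repressor and activator downstream of p63 in human keratinocytes, at 70.8 ± 7.49 against 48.0 ± 7.00, and Elf5, an ETS factor of epithelium, at 91.1 ± 6.30 against 65.5 ± 13.3 (SD, n = 4 each). Both had R26Pax3/Pax3 arrays wholly above wild type and log2 differences of 0.44 (SE 0.132) and 0.41 (SE 0.137). Zfp750 was below the array median on 1 of the 8 arrays. Trp63, the gene of p63, the master regulator of stratified epithelium, had 0.19 (SE 0.136) with overlap. Its difference was -0.052 in the first and 0.44 in the last 4 arrays. The 6 lower regulators, Jag2, Klf5, Elf3, Ovol2, Ehf and Grhl2, ran from -0.14 to -0.027, all with overlap.

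Late genes of cornification mostly read below the array medians. Of 38 on the array, 11 passed the filter and 26 had their brightest probe set below the median on all 8 arrays, as Sprr1a and Ivl did. Of the 11, 8 were higher and 3 lower, with a median of 0.084 and 0 with an unadjusted p under 0.05. Dmkn and Krtdap, described above, had the smallest p. Calml3, a calmodulin-like protein, and Lce3b, a late envelope protein, had log2 differences of 0.25 (SE 0.189) and 0.48 (SE 0.371), but were below the array median on 7 and 4 of the 8 arrays. Loricrin, Lor, the main envelope protein of skin, read 46.5 ± 12.9 against 56.4 ± 20.2 (SD, n = 4 each), a log2 difference of -0.20 (SE 0.204). Its signal was below the array median on 2 of the 8 arrays. Elovl4, an enzyme of very long fatty acids, read 121 ± 15.5 against 129.5 ± 17.1, a log2 difference of -0.09 (SE 0.127).

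Of the genes of epithelium in general, 12 of 20 were higher, with a median of 0.050 and 4 with an unadjusted p under 0.05 (smallest adjusted p = 0.808). The tight junction genes Cldn6 and Cldn4 each had a log2 difference of 0.48 (SE 0.141 and 0.174). The claudins Cldn3 and Cldn7 of the same list were lower, by -0.29 (SE 0.228) and -0.15 (SE 0.141), with overlap. Cldn4 had R26Pax3/Pax3 arrays above wild type (195 ± 63.8 against 130 ± 7.30, SD, n = 4 each), and so had no other member. The serine protease inhibitor Spint1 had a log2 difference of 0.24 (SE 0.102) and the splicing factors Esrp2 and Esrp1 had 0.36 (SE 0.135) and 0.23 (SE 0.108).

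The barrier genes were then read relative to the mean of these 20 general epithelial genes on the same array. That mean itself differed by 0.094 between genotypes. Sfn had a relative difference of 0.47, with R26Pax3/Pax3 arrays between -0.59 and -0.26 and wild type arrays between -1.19 and -0.73. Lgals7 had 0.58, with -0.85 to -0.35 against -1.39 to -0.98, and neither gene overlapped between genotypes. As both were selected on this comparison, nothing is read from these gaps. Fabp5 had 0.16 and overlapped. Klf4 had -0.26 and Perp 0.047. The mean of all 9 barrier genes relative to general epithelium overlapped between genotypes, at 0.12 to 0.51 in R26Pax3/Pax3 and 0.037 to 0.30 in wild type. Relative to the basal layer it also overlapped, with a difference of -0.051. Such a ratio compares genes within a sample and does not say which of them changed.

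**Figure D3:**
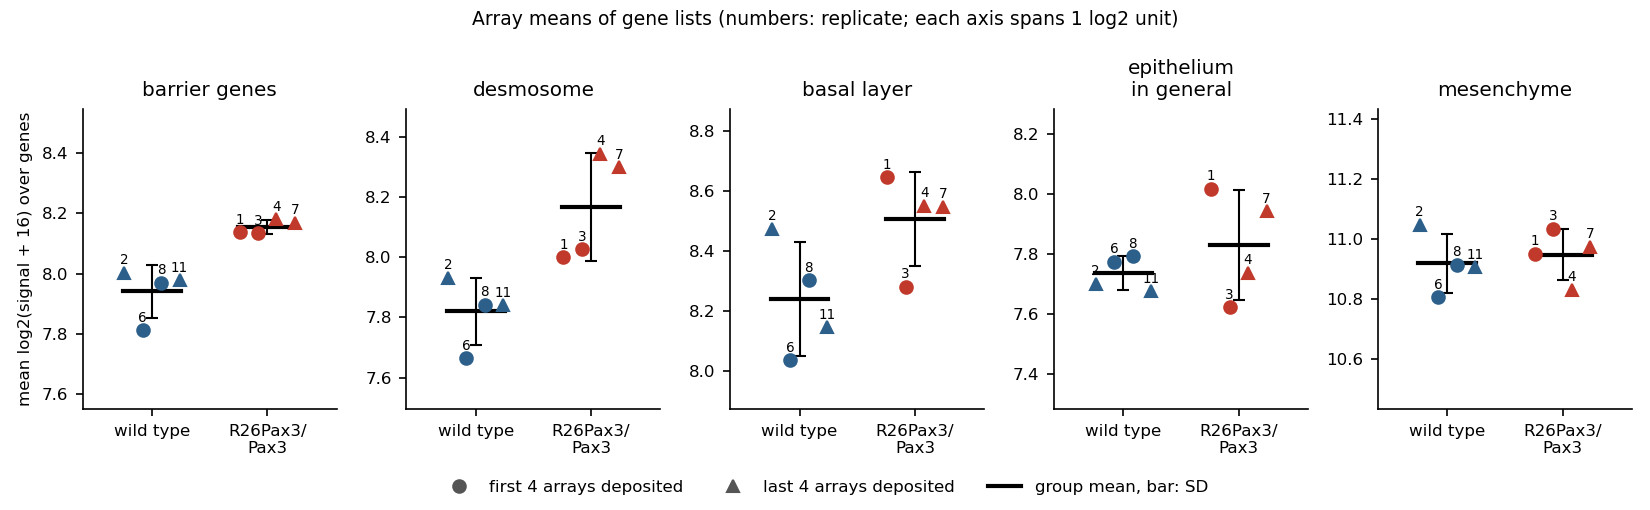
Mean log2(signal + 16) on each array over the genes of 5 lists, with replicate numbers, group mean and SD; circles are the first 4 and triangles the last 4 arrays deposited, and each axis spans 1 log2 unit. The barrier genes and the desmosome genes have R26Pax3/Pax3 arrays above all wild type arrays, and the means of general epithelium and of mesenchyme overlap. The barrier genes were selected on this comparison, and the other lists were chosen with earlier results of these data known. Nothing is read from the gap of the barrier genes or of the desmosome genes.

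Relatives of the barrier proteins were centred near 0. Of 33 measured members of the 14-3-3, galectin, fatty acid-binding, PMP22, plakin and Krüppel-like families, 16 were higher and 17 lower, with a median of -0.0098 and 0 with an unadjusted p under 0.05. Fabp7, the brain-type fatty acid-binding protein, had 0.40 (SE 0.214) with overlap, and Emp1, an epithelial membrane protein related to Perp, had 0.15 (SE 0.0819). Lgals12 had R26Pax3/Pax3 arrays below wild type (27.4 ± 4.43 against 36.6 ± 5.40, SD, n = 4 each), but all its signals were below the array medians.

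Since Sfn and Perp are p53 targets, other such targets were read too. Of 14 measured, 8 were higher and 6 lower, with a median of 0.036 and 1 with an unadjusted p under 0.05 (limma adjusted p = 0.995). This was Pmaip1, which encodes the cell death protein Noxa, at 66.7 ± 22.5 against 40.3 ± 10.2 (SD, n = 4 each) with overlap. Pmaip1 was below the array median on 3 of the 8 arrays. Mdm2, the ubiquitin ligase that p53 induces, had -0.12 (SE 0.0993).

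**Figure D4:**
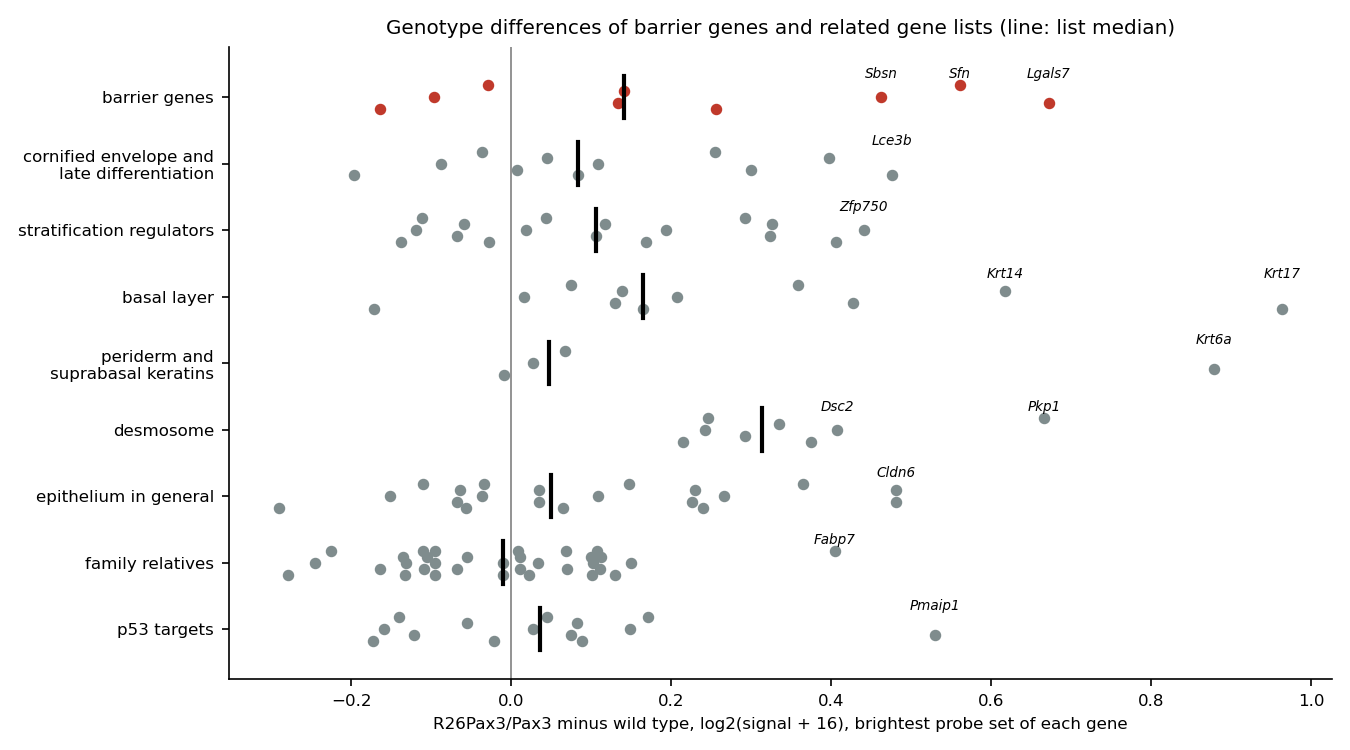
Log2 difference, R26Pax3/Pax3 minus wild type, of the brightest probe set of each gene above the filter, for the barrier genes (red) and 8 related lists (grey); black lines are list medians, and the names are those of members at the high end. Desmosome genes all lie above 0 over the 8 arrays, at a median of 0.31, and the family relatives are centred near 0. The lists were chosen with earlier results of these data known.

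Markers of other tissues also differed between the arrays. Bone markers were lower in 7 of 7 genes (summed signal 7299 to 8701 in R26Pax3/Pax3 and 8563 to 11184 in wild type). Skeletal muscle markers were lower in 9 of 9 (532 to 4331 against 1858 to 4800), and neuron markers were higher in 8 of 8 (1079 to 1835 against 567 to 1956). Mesenchymal markers were higher in 5 and lower in 6 (39075 to 45399 against 40975 to 49490). Erythroid markers were higher in 4 of 4 (4667 to 7100 against 4730 to 5500), endothelial markers in 5 of 8, macrophage markers in 6 of 8 and tooth germ markers in 3 of 5, and cartilage markers were lower in 4 of 5. Of the defining genes, Sp7 for bone read 437.1 to 511.6 against 474 to 752.6, Acta1 for muscle 131.6 to 1003 against 521.7 to 1168, and Tubb3 for neurons 62.4 to 144.5 against 17.3 to 135.9. Hba-a1 for red cells and Amelx for tooth germ were below the median on all 8 arrays on the probe sets used. Probe sets with several symbols were not used. The globin Hbb-y of the erythroid list read 4272 to 6774 against 4468 to 5265. None of these markers was called at an adjusted p under 0.05 in limma, against 0.0162% of all genes. An unadjusted p under 0.05 was found for 4 of 7 bone, 3 of 8 neuron and 3 of 11 mesenchyme markers. The same held for 2 of 5 cartilage, 1 of 4 erythroid and 1 of 5 tooth germ markers and for 0 of the others. Over all genes the share was 5.58%. The muscle median was 0.086 in the first and -1.29 in the last 4 arrays, the neuron median was 0.14 and 1.40, and the bone median was -0.52 in both. The summed general epithelial signal was 5063 to 7135 against 5475 to 6073. The part of these tissues in the barrier gene values was not tested.

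Genes whose array pattern was most like the mean of the barrier genes were taken by Pearson's r over the 8 arrays after the genotype means were removed. The 10 highest of 12320 genes were Foxl2 (r = 0.97), Ro60, Ak3, Sco2, Mcoln1, Ptgfrn, Telo2, Rhoj, Ppp2r2c and Map2k3 (r = 0.94), and 0 of them belong to a list used here. With 8 arrays, 53 genes reached an r over 0.9. Median r was 0.56 for the basal layer, 0.43 for desmosome genes and -0.061 for general epithelium. Lists of other tissues reached values of the same size, with 0.45 for bone and 0.37 for skeletal muscle markers, and -0.65 for cartilage and -0.76 for neuron markers.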

How the data were processed

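Total RNA (6 µg) was labelled as biotinylated cRNA and read on an Affymetrix mouse array. The deposited values are linear signal intensities that the authors computed with MAS5, as named without a version and per the submitters' processing notes. The array medians were close to each other, and if the arrays were scaled to a common level, a change shared by most genes would not be seen. The number of arrays limits the precision. Groups came from the sample titles. The 64 control probe sets were left out, and of the other 45037, 34945 had a single symbol in the array annotation, 932 several and 9160 none.

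Signals were taken as log2(signal + 16). Probe sets above the 40th percentile of the mean log2 level were kept, 27022 in all. Limma 3.58.1 in R 4.3.3 (lmFit, eBayes with intensity trend) was fitted with Benjamini-Hochberg adjustment over all of them, for genotype, for order of deposit beside genotype, and for their interaction, and was tested on simulated data. The interaction was added after the data were seen. Genes outside the barrier list were chosen by a written rule, up to 6 per list by smallest p. Cldn3 and Cldn7 were named outside that rule, beside the other claudins of their list. Also outside it were the 6 lower stratification regulators, Krt15, Itga3, Bcam, Dsg2 and Hbb-y, named to show the spread of their lists. Members and lists were chosen with earlier results of these data known. Alternatives changed pseudocount, filter, normalization, variance prior, weights and replicates. Promoters are RefSeq's on GRCm38.p6, and no coordinates of the array's probes were used.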

Additional observations from a re-analysis of the deposited data

Results flagged for a closer look

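On the brighter probe set of Fabp5, R26Pax3/Pax3 replicate 3 stood apart from its group, at 4384 where the other 3 arrays read 4694 to 4742. It was the 1 group of 4 arrays so marked among 50 examined, and chance marks about 1 in 20.

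On the probe set 1439630_x_at of Sbsn, both R26Pax3/Pax3 arrays were above both wild type arrays in the first 4 arrays deposited and below both in the last 4. The genotype difference was lower in the last 4 by -1.43 on the log2 scale, which did not pass over all probe sets (limma interaction adjusted p = 0.223).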

How the results depend on the processing

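No paired analysis was possible because the genotypes share no replicate numbers. No barrier probe set was called under any of the alternatives run, for genotype or for order of deposit. The count of calls over all probe sets, 4, became 9 without R26Pax3/Pax3 replicate 3 and was 4 to 9 when 1 replicate was left out. The mean log2 difference of the barrier genes, 0.21, was 0.29 with the filter at the 60th percentile, which leaves out the dimmer genes Sprr1a and Evpl, and 0.17 to 0.24 when 1 replicate was left out. Without Sbsn, an alternative added after the data were seen, it was 0.18. Of 226 values of single probe sets under the alternatives, 216 stayed within 1 SD of the reported value and 7 turned sign, on Evpl, Perp, Sbsn and the dimmer Klf4 probe set. The difference of Lgals7 ran from 0.48 to 0.77, that of Sfn from 0.42 to 0.66 and that of the brighter Fabp5 probe set from 0.23 to 0.28. Sprr1a, Ivl and the third Sbsn probe set were below the array medians, which limits what can be said of them.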
